A study of Rattus norvegicus with 15 samples.

Results

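Genes of pericytes and of platelet-derived growth factor (PDGF) signalling were followed in the posterior cerebral artery of rats after cerebral hypoperfusion. Of 8 genes listed (Pdgfrb, Pdgfra, Pdgfa, Pdgfb, Cspg4, Mcam, Rgs5 and Anpep), 7 had a probe set whose gene symbol on the array platform was that gene. They were measured by 8 of the 15923 probe sets of the array, with a pair of probe sets for Mcam. No probe set named for Pdgfb was used here, so the main ligand of pericyte recruitment is not analysed.

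RNA came from the ipsilateral posterior cerebral artery of Sprague Dawley rats 7 weeks of age and 300 to 350 g in weight, and RNA of 8 rats was pooled for each array. The 15 arrays formed 5 groups of 3: 24 h after 3-vessel occlusion (3VO), 24 h after sham surgery, 3 d after 3VO, 3 d after sham surgery, and intact animals. In 3VO both vertebral arteries were coagulated and the left common carotid artery was ligated, under isoflurane with buprenorphine as pain relief. Sham animals had the same anaesthesia and pain relief, and their vessels were laid open without being touched. Intact rats had no operation, and the labels name no buprenorphine for them. All 5 groups were perfused with latex under papaverine before the artery was taken. Neither sex nor separate batches are given in the labels, and p-values measure the spread between arrays, which may in part be technical.

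Pericytes are mural cells that sit on capillaries and small vessels within the basement membrane, next in line to the smooth muscle cells of arteries. Endothelial cells release PDGF, and its B chain acts on the receptor PDGFRβ of mural cells to draw them to the vessel and keep them there. The related receptor PDGFRα, which also binds the A chain, is known from fibroblasts and from oligodendrocyte precursors of the brain. NG2 (Cspg4), CD146 (Mcam), Rgs5 and CD13 (Anpep) are common mural markers, but none belongs to pericytes alone.

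Promoter sequence is shown for Cspg4 and Anpep, chosen by array patterns described further on, and no difference of either passed with all arrays. For Cspg4 every 3VO array lay below every sham array, as for 9% of all probe sets at 24 h and 4.75% at 3 d. The share for both times together was not counted. For Anpep every operated array lay above the intact arrays, as for 1.08% of all probe sets. Both sequences come from RefSeq on build GRCr8 and run from 250 bases before to 50 bases from the annotated start. RefSeq promoters were found for 6 of the 8 listed genes, Pdgfb included, but not for Mcam or Pdgfrb, which could therefore not be shown. Capitals mark GGGCGG or its reverse complement, the GC box of Sp1-type factors. The Cspg4 window is chr8:66160692-66160991 on the plus strand, and the Anpep window is chr1:143195052-143195351 on the minus strand.
Cspg4: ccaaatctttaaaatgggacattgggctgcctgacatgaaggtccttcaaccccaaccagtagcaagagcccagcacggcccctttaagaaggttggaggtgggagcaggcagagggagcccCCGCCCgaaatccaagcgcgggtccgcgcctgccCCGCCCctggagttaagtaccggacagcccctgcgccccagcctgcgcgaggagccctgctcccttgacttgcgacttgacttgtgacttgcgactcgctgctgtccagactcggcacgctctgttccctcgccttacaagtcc
Anpep: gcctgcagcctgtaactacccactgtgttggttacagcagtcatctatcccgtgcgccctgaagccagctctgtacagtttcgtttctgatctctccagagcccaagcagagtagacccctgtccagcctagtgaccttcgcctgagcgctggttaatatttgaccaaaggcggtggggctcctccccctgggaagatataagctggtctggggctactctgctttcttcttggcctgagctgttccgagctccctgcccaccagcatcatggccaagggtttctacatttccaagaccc
Cspg4 has 2 matches to GGGCGG, beginning 128 and 94 bases before the start, and Anpep has none. Such a match occurs in 33.1% of the 33469 RefSeq promoters of that length, searched on both strands. GC content is 62.0% with 18 CpG for Cspg4 and 55.7% with 7 CpG for Anpep. Neither window holds a CArG box, the site of serum response factor in smooth muscle genes (present in 1.64% of promoters), nor TATAAA (14.2%), TGANTCA (7.33%), TTCNNNGAA (8.87%) or CACGTG (6.42%). A match is a description of letters and not evidence of binding.

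Values are linear array signals, scaled by the authors to 1 global intensity per array, with medians between 2553.4 and 2938.4. Differences between groups are differences in the mean of log2(signal + 16), each with its standard error (SE) from limma over all 15 arrays. A probe set passes at a Benjamini-Hochberg adjusted p under 0.05 over the 15737 probe sets tested. All 8 member probe sets were tested, and the lowest member signal on any array was 2046. The first sham array of 3 d is called sham in its title and source, while its treatment text describes the occlusion. It was kept as sham, and each member difference between 3VO and sham at 3 d is also given without it. In pooled artery RNA, fewer cells of a type and less RNA per cell cannot be told apart.

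The comparison at 24 h sets posterior cerebral arteries of rats with the neck arteries closed against those of rats in which these were only laid open. All 8 member probe sets had a lower mean after 3VO than after sham surgery, and the median over the 7 genes was -0.55 on the log2 scale, against -0.02 over all probe sets tested. On 6 of the 8 the arrays of the groups did not overlap, where 9% of all probe sets were lower without overlap. None of the 8 passed, against 0.0508% of all probe sets, and 5 had an unadjusted p under 0.05, where 6.97% of all did. In the lower direction all 5 of these stood against 3.72% of all probe sets. Both Mcam probe sets are in the 5 and in the 6, so Mcam is counted more than once, and by gene 4 of 7 had such a p. The members were listed with earlier results of these arrays known, so these counts describe them and are not a test of the set.

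Mcam encodes CD146, an adhesion molecule of endothelial and mural cells that also serves as a PDGFRβ co-receptor. Its probe set 1369793_a_at read 9366, 10124 and 8303 on arrays of 24 h after 3VO, and 15596, 16780 and 20849 after sham surgery. The difference was -0.93 (SE 0.30, limma adjusted p = 0.517), a ratio of 0.525. The probe set 1374933_at read 7642, 8333 and 8370.2 after 3VO, and 18359.9, 17791 and 15129.8 after sham surgery. Its difference was -1.07 (SE 0.33, limma adjusted p = 0.503), a ratio of 0.477. Both probe sets thus placed every 3VO array of 24 h below every sham array. With only the arrays of these groups in the fit, 1374933_at passed (limma adjusted p = 0.0141), as did 0.143% of all probe sets in that fit, and over 25 alternatives its adjusted p ran between 0.0141 and 0.970.

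Cspg4 encodes NG2, a membrane proteoglycan of mural cells and oligodendrocyte precursors. It read 2195, 2158 and 2046 after 3VO at 24 h, against 3189, 3127 and 5043 after sham surgery. The 3VO arrays lay within a narrow band below every sham array, while the third sham array stood well above the other sham arrays. The difference was -0.79 (SE 0.25, limma adjusted p = 0.517), a ratio of 0.579, and it was -0.56 without the third sham array.

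Pdgfrb, the receptor for the PDGF B chain, read 4596, 5046 and 4754 after 3VO at 24 h, against 7178, 6455 and 7989 after sham surgery. The groups did not overlap, with a difference of -0.58 (SE 0.20, limma adjusted p = 0.541) and a ratio of 0.669. The suffix of its probe set, 1370642_s_at, marks probes that can match more than 1 transcript.

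Anpep encodes aminopeptidase N (CD13), a surface peptidase of pericytes, fibroblasts and myeloid cells. Its signal was 5725, 5743 and 5554 after 3VO at 24 h, and 6571, 7460 and 6893 after sham surgery, again without overlap. The difference of -0.30 (SE 0.13, limma adjusted p = 0.669) was smaller than for Mcam or Cspg4. Rgs5, which ends signalling of G protein-coupled receptors in pericytes and arterial smooth muscle, averaged 6155 ± 1255 in 3VO arteries and 9116 ± 2476 in sham arteries, given as mean and SD of 3 arrays. Its highest 3VO array (7054.5) lay just below its lowest sham array (7211.5), and the difference was -0.55 (SE 0.35, limma adjusted p = 0.808).

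The other receptor and the ligand of the list differed least at 24 h. Pdgfra averaged 37659 ± 3341 after 3VO and 41191 ± 5018 after sham surgery, a difference of -0.13 with a 95% interval of -0.46 to 0.21. Pdgfa, the gene of the PDGF A chain, averaged 4583 ± 203 after 3VO and 5198 ± 1375 after sham surgery, a difference of -0.15 with an interval of -0.60 to 0.30. Arrays of the groups overlapped for both genes. Pdgfa changed sign to 0.06 without the first sham array of 24 h, which read 6784.5 where the other sham arrays read 4428 and 4380.1.

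**Figure D1:**
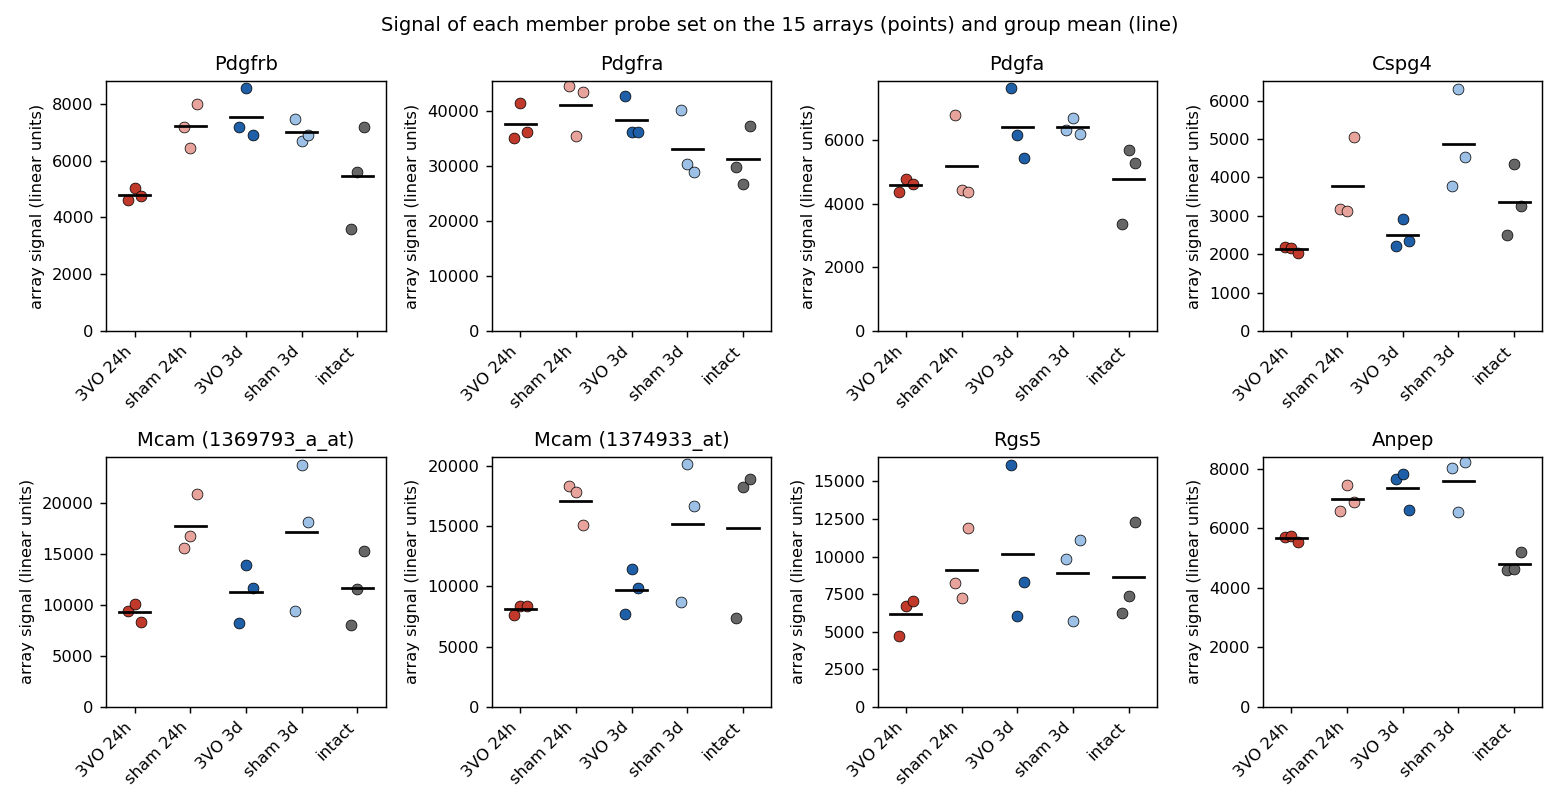
Array signal in linear units (y axis, from 0) of each member probe set in the 5 groups (x axis); points are arrays and lines are means of 3 arrays. For Mcam, Cspg4, Pdgfrb, Rgs5 and Anpep every 3VO array of 24 h sits below every sham array of 24 h, and for Anpep every operated array sits above the intact arrays.

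Markers of other cells also differed in this comparison. Of 14 contractile smooth muscle genes measured, all had a lower mean in 3VO arteries of 24 h (median -0.68), and their summed signal was 381680 to 535096 after 3VO against 687673 to 787205 after sham surgery. Neuron markers had a higher mean in 11 of 11 cases (median 0.96), and their sums of 93902 to 189661 in 3VO arteries overlapped 63998 to 105099 in sham arteries. Endothelial markers were lower in 9 of 10 cases (median -0.28), and their sums of 92715 to 135077 after 3VO overlapped 129364 to 143100 after sham surgery. Leptomeningeal fibroblast markers were lower in 11 of 12 cases (median -0.36), with sums of 795903 to 852876 in 3VO arteries and 950332 to 1134136 in sham arteries. The lists of macrophages (11 of 12 higher, median 0.52) and oligodendrocyte precursors (4 of 4 higher, median 0.71) ran the other way, as did astrocytes (8 of 9 higher, median 0.47). Oligodendrocyte markers were higher in 6 of 7 cases (median 0.31), and choroid plexus markers were lower in 4 of 7 (median -0.35). Erythroid markers were lower in 4 of 4 cases (median -0.58), with sums of 241285 to 257698 in 3VO arteries and 307431 to 360003 in sham arteries. Platelet markers were lower in 3 of 3 cases (median -0.21), with sums of 11474 to 19221 in 3VO arteries and 20391 to 24131 in sham arteries. No marker in these lists was below a signal of 100 on all arrays. The part of these cells in the differences of the members was not tested.

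The wider pericyte list had 12 markers, and 9 of them had a lower and 3 a higher mean in 3VO arteries of 24 h (median -0.47). Its summed signal was 70139 to 81474 after 3VO and 99242 to 131233 after sham surgery, without overlap. Of its genes 5 are members and all 5 were lower, so this list is not separate from the members. The other lower genes were Vtn (-0.78), Cox4i2 (-0.51), Cd248 (-0.43) and Notch3 (-0.09). Vtn alone averaged 28900 after 3VO and 50804 after sham surgery, where the summed signal averaged 76564 and 118562. The 3 higher genes were Kcnj8 and Abcc9, the pore and the sulfonylurea receptor of the mural ATP-sensitive potassium channel, and Higd1b, a mitochondrial gene used as a pericyte marker. They differed by 0.25, 0.09 and 0.09, none of which passed.

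At 3 d the question was whether the differences between 3VO and sham surgery last. Of the 8 member probe sets 5 had a lower and 3 a higher mean after 3VO, and the median over the 7 genes was -0.01, as it was over all probe sets tested. None passed and none of the 15737 passed (0% called), while 1 member, Cspg4, had an unadjusted p under 0.05, where 4.73% of all did. Cspg4 was also the 1 member whose arrays did not overlap, against 4.75% of all probe sets that were lower without overlap.

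Cspg4 read 2203, 2925 and 2356 at 3 d after 3VO, against 3773, 6299 and 4537 after sham surgery. Every 3VO array was again below every sham array, and the ratio was 0.522 (log2 -0.94, SE 0.25, limma adjusted p = 0.703). Of 15737 probe sets it had the 39th smallest unadjusted p in this comparison. The difference was -1.11 without the first sham array of 3 d and -0.74 without the second. The differences at 3 d and at 24 h were themselves apart by -0.15 with an interval of -0.91 to 0.61, so a change of the Cspg4 difference over time was not detected.

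Mcam at 3 d depended on the sham array with the conflicting labels. Its probe set 1369793_a_at read 8248, 13949 and 11679 after 3VO, and 9445, 23755 and 18142 after sham surgery, the first of which is that array. The probe set 1374933_at read 7686, 11465 and 9840.1 after 3VO, and 8689, 20120.2 and 16701 after sham surgery. On both probe sets that array lay within the 3VO range while the other sham arrays lay above it. The differences were -0.53 (SE 0.30) and -0.58 (SE 0.33) with all arrays, each at a limma adjusted p = 0.999. Without that array they were -0.91 (SE 0.26, adjusted p = 0.588) and -0.94 (SE 0.31, adjusted p = 0.660), which were their lowest adjusted p over the 25 alternatives. Then both Mcam probe sets and Cspg4 did not overlap, and 4 members rather than 5 had a lower mean after 3VO. Without the second sham array they were -0.25 and -0.34, so the size of the Mcam difference at 3 d rests on single arrays. Beside Cspg4, Anpep did not overlap without the second sham array and Pdgfa did not without the first 3VO array of 3 d. Both Mcam probe sets overlapped in these cases. Non-overlap comes more easily with an array left out. The share of all probe sets was not counted in these settings, so the members cannot be set against it.

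Pdgfrb no longer stood lower after 3VO at 3 d, at 7195, 8550.2 and 6893 against 7473, 6675 and 6883 after sham surgery. The groups overlapped, with a difference of 0.10 (SE 0.20) and an interval of -0.32 to 0.52, or 0.15 without the first sham array. Among the members Pdgfrb had the smallest p for a change of the 3VO difference over time, at 0.68 (SE 0.28, limma adjusted p = 0.999), which did not pass. At an unadjusted p under 0.05 it was the 1 of 8 members, where 2.78% of all probe sets were.

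For the remaining members the groups overlapped at 3 d. Pdgfra averaged 38388 ± 3766 after 3VO and 33191 ± 6118 after sham surgery, a difference of 0.22 with an interval of -0.12 to 0.56, and 0.37 without the first sham array. Pdgfa averaged 6414 ± 1130 in 3VO and 6407 ± 269 in sham arteries, a difference of -0.01 with an interval of -0.46 to 0.44, or -0.02 without the first sham array. Rgs5 averaged 10144 ± 5271 after 3VO and 8890.2 ± 2824 after sham surgery, with 1 array of 3 d after 3VO at 16081. Its difference of 0.12 became -0.27 without that array, and 0.22 without the first sham array. Anpep averaged 7371 ± 662 in 3VO and 7612 ± 914 in sham arteries, a difference of -0.04 with an interval of -0.31 to 0.23, or 0.0002 without the first sham array. At 3 d 14 of 14 contractile genes were lower (median -0.38), with sums of 376544 to 579248 after 3VO that overlapped 473005 to 782840 after sham surgery. The sum of 473005 was that of the first sham array, whose labels conflict. The other sham arrays, at 631707 and 782840, lay above every 3VO array of 3 d. The part of these cells was again not tested. Macrophage markers were higher in 12 of 12 cases (median 0.74), with sums of 221749 to 278593 in 3VO arteries above 160261 to 193294 in sham arteries. Erythroid markers were lower in 4 of 4 cases (median -0.74), with sums of 162910 to 248152 in 3VO arteries below 276038 to 371459 in sham arteries. Neuron markers were higher in 10 of 11 cases (median 0.36), and their sums of 65970 to 173049 in 3VO arteries overlapped 83552 to 104120 in sham arteries. Endothelial markers were lower in 9 of 10 cases (median -0.22), oligodendrocyte markers in 7 of 7 (median -0.30) and choroid plexus markers in 6 of 7 (median -0.48). Pericyte markers (median -0.02) and leptomeningeal fibroblast markers (median -0.03) were each lower in 7 and higher in 5 cases. Higher means were found for 6 of 9 astrocyte (median 0.11), 3 of 3 platelet (median 0.10) and 2 of 4 oligodendrocyte precursor markers (median -0.08). The part of these cells in the members was not tested either.

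**Figure D2:**
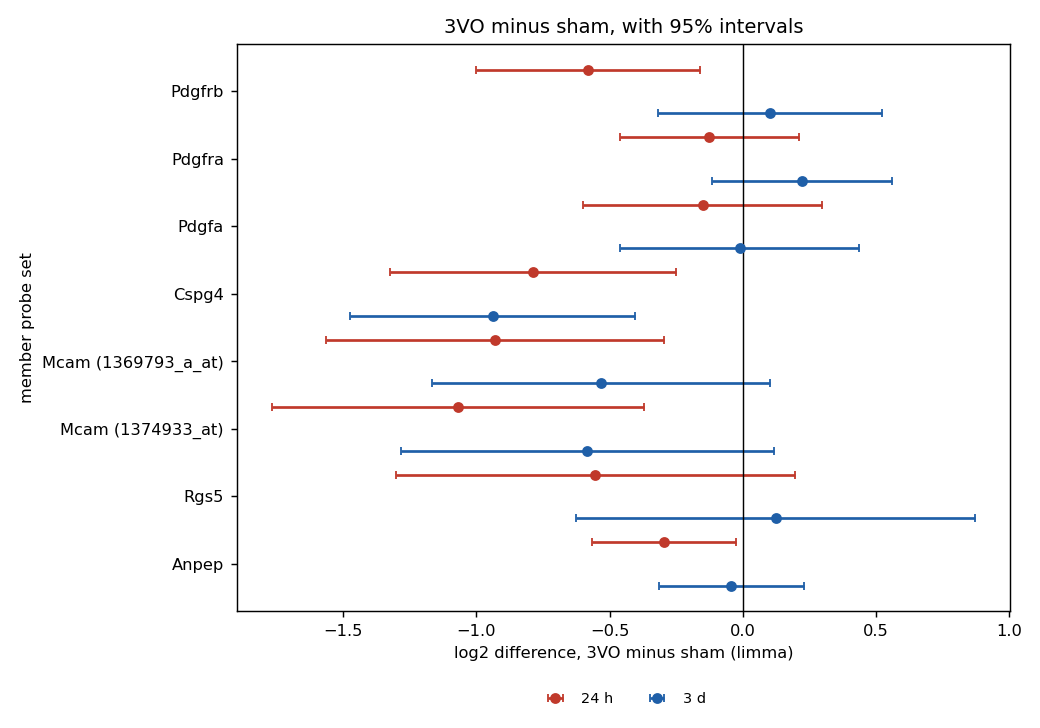
Log2 difference of 3VO minus sham (x axis, limma, with 95% intervals) for each member probe set (y axis) at 24 h and at 3 d. At 24 h the estimates lie between -1.07 for Mcam 1374933_at and -0.13 for Pdgfra; at 3 d Cspg4, at -0.94, is the member whose interval stays below 0.

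Each operated group was also set against intact arteries, which served as the baseline of all 4 comparisons, so these share their control arrays. Intact arrays varied widely for several members. Mcam 1374933_at read 7366, 18238 and 18877 on them, Pdgfrb 3579, 5601 and 7190.4, and Rgs5 6257, 7387 and 12277. The first intact array was the lowest of the 3 for Pdgfrb, Pdgfa, Cspg4, Rgs5, Anpep and both Mcam probe sets, and its summed neuron markers (367326) were the highest of all 15 arrays. Against intact none of the 8 member probe sets passed in any of the 4 groups. The share of all probe sets that passed was 0.184% for 3VO at 24 h, 0% for sham at 24 h, 0.222% for 3VO at 3 d and 0% for sham at 3 d. At an unadjusted p under 0.05 there were 2, 4, 2 and 2 members in the same order, where 9.96%, 15%, 12.9% and 14.2% of all probe sets were.

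Anpep means were higher in each operated group than in intact arteries, although no difference passed with all arrays. It read 5725, 5743 and 5554 on arrays of 24 h after 3VO, and 6571, 7460 and 6893 on arrays of 24 h after sham surgery. At 3 d it read 7678, 7824 and 6611 after 3VO, and 8042, 6562 and 8231 after sham surgery, against 4603, 4643 and 5198 on intact arrays. All 12 operated arrays lay above the 3 intact arrays, a pattern that 1.08% of all probe sets showed and that was looked for after these values were seen. In single groups, 7.59% of all probe sets were higher than intact without overlap for 3VO at 24 h, 9.96% for sham at 24 h, 10.3% for 3VO at 3 d and 9.86% for sham at 3 d. The log2 differences of Anpep were 0.24 (limma adjusted p = 0.551) for 3VO at 24 h, 0.53 (adjusted p = 0.135) for sham at 24 h, 0.61 (adjusted p = 0.0763) for 3VO at 3 d and 0.65 (adjusted p = 0.118) for sham at 3 d, with an SE of 0.13 each. Without the third intact array the last 3 passed, at limma adjusted p = 0.0323 for sham at 24 h, 0.0337 for 3VO at 3 d and 0.0404 for sham at 3 d. In that fit 5.2%, 1.64% and 1.17% of all probe sets passed in the same order, more than with all arrays. Over all 25 alternatives the adjusted p ran from these values up to 0.347, 0.495 and 0.419. Summed macrophage markers were 263160 to 386619 for 3VO at 24 h, 180427 to 256007 for sham at 24 h, 221749 to 278593 for 3VO at 3 d, 160261 to 193294 for sham at 3 d and 122015 to 226184 for intact. Summed leptomeningeal fibroblast markers were 795903 to 1219691 over the operated arrays and 620512 to 922292 on intact arrays, and the part of either cell type in Anpep was not tested.

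The receptor Pdgfrb stood at 0.52 (SE 0.20, limma adjusted p = 0.297) above intact for 3VO at 3 d, 0.45 (adjusted p = 0.300) for sham at 24 h and 0.42 (adjusted p = 0.356) for sham at 3 d, while 3VO at 24 h differed by -0.13 (adjusted p = 0.875). For sham at 24 h it passed without the third intact array (difference 0.68, limma adjusted p = 0.0440), where 5.2% of all probe sets did, with adjusted p up to 0.716 over the alternatives. Pdgfra differed by 0.40 for sham at 24 h and by 0.08 to 0.30 in the other operated groups. Pdgfa differed by 0.44 for 3VO at 3 d and 0.46 for sham at 3 d, against -0.03 for 3VO at 24 h and 0.13 for sham at 24 h. Its sham arrays of 3 d, at 6331, 6706 and 6185, lay above the intact arrays, at 3360, 5695 and 5291, as 9.86% of all probe sets did.

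Cspg4 means lay below intact after 3VO and above it after sham surgery, and no difference passed. It differed from intact by -0.62 for 3VO at 24 h (SE 0.25, limma adjusted p = 0.427) and -0.41 for 3VO at 3 d, but by 0.17 for sham at 24 h and 0.53 for sham at 3 d (adjusted p = 0.354). Its 3VO arrays of 24 h, from 2046 to 2195, lay below the lowest intact array at 2491.5, as 6.19% of all probe sets did, and those of 3 d, from 2203 to 2925, overlapped with intact. For Mcam 1369793_a_at the differences were -0.28 for 3VO at 24 h, 0.65 for sham at 24 h, -0.03 for 3VO at 3 d and 0.51 for sham at 3 d. Mcam 1374933_at gave -0.75, 0.32, -0.52 and 0.07 in the same order. Sham arrays of 24 h lay above the intact arrays on 1369793_a_at, as 9.96% of all probe sets did, and overlapped them on 1374933_at. These values rest on 3 widely spread intact arrays. For sham at 24 h the difference became -0.12 for Mcam 1374933_at and -0.03 for Cspg4 without the first intact array, so the direction against intact was not settled for either. Without the first sham array of 3 d, sham at 3 d differed from intact by 0.88 for Mcam 1369793_a_at, 0.43 for Mcam 1374933_at and 0.70 for Cspg4. Rgs5 differed from intact by -0.45 to 0.17, with every interval spanning 0.

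**Figure D3:**
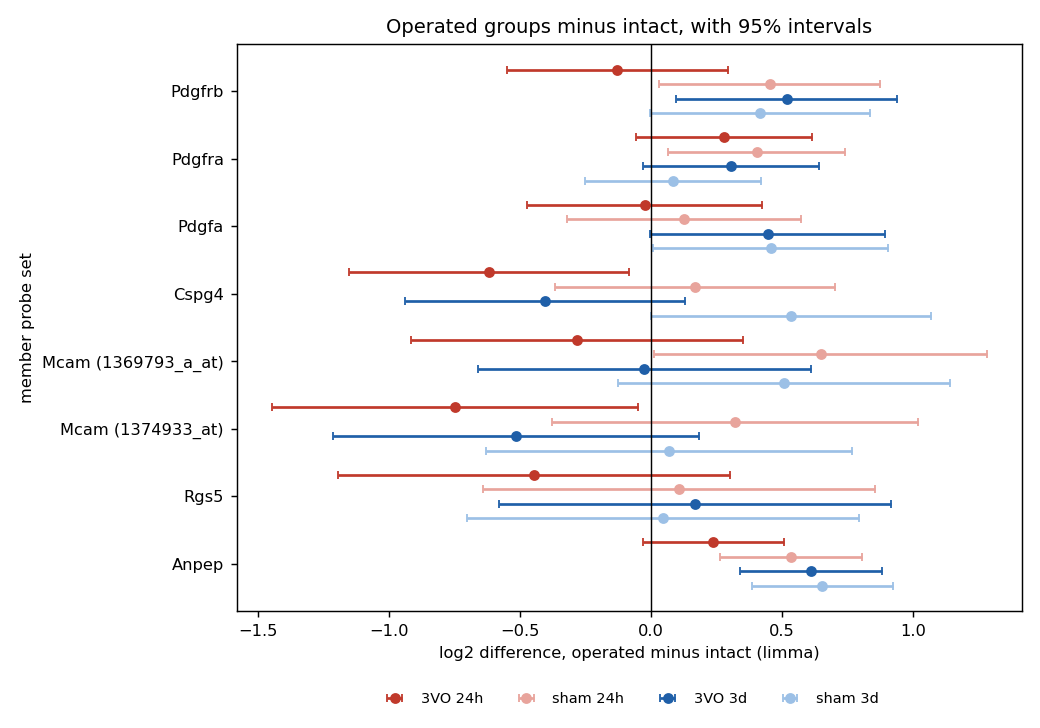
Log2 difference of each operated group minus intact (x axis, limma, with 95% intervals) for each member probe set (y axis). Anpep lies between 0.24 and 0.65 in all 4 groups, whereas Cspg4 lies at -0.62 and -0.41 after 3VO and at 0.17 and 0.53 after sham surgery.

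The order of the group means differed between members. For Cspg4 it was, from low to high, 3VO at 24 h, 3VO at 3 d, intact, sham at 24 h and sham at 3 d, and only the first pair of neighbours did not overlap (2195 against 2203). Both Mcam probe sets shared an order of 3VO at 24 h, 3VO at 3 d, intact, sham at 3 d and sham at 24 h, with all neighbours overlapping. Pdgfrb and Rgs5 had 3VO at 24 h lowest and 3VO at 3 d highest, also with all neighbours overlapping. For Anpep the order was intact, 3VO at 24 h, sham at 24 h, 3VO at 3 d and sham at 3 d, and the first 2 steps were without overlap. Intact was lowest for Pdgfra (31283 ± 5381) and sham at 24 h highest, with all neighbours overlapping, as they did for Pdgfa.

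Members were also compared with each other across all 15 arrays on the log2 scale. These correlations include the group differences, and their points share arrays and scaling, so they describe these arrays and carry no p. The Mcam probe sets tracked each other at a Pearson r = 0.864, and Cspg4 tracked Mcam 1369793_a_at at r = 0.797 and 1374933_at at r = 0.762. Around the group means the same pairs had r = 0.839, 0.741 and 0.628. Pdgfrb had r = 0.726 with Anpep and r = 0.689 with Pdgfa, which fell to r = 0.388 and 0.542 around the group means. Pdgfra and Cspg4, both also genes of oligodendrocyte precursors, had r = -0.322.

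Set against other cell markers, Mcam 1369793_a_at followed the summed contractile smooth muscle signal at r = 0.940 over the 15 arrays and at r = 0.906 around the group means. Mcam 1374933_at had r = 0.903 and Cspg4 r = 0.762 with that sum, whereas Anpep had 0.251 and Pdgfra 0.0316. With the summed leptomeningeal fibroblast markers r was 0.797 for Anpep, 0.762 for Pdgfrb and 0.709 for Pdgfra. It was 0.138 for Cspg4 and 0.309 for Mcam 1369793_a_at. Pdgfrb went with both sums, as its r with the contractile sum was 0.598. Around the group means Pdgfrb had r = 0.684 with the contractile sum and 0.664 with the fibroblast sum. Every member probe set had a negative r with the summed neuron markers. It was -0.794 for Pdgfrb, -0.742 for Anpep and -0.604 for Mcam 1369793_a_at, and nearest 0 for Rgs5 at -0.272. For the summed signal of the 7 pericyte markers outside the members, r was 0.698 for Pdgfrb, 0.688 for Pdgfra and 0.631 for Rgs5. It was 0.556 for Anpep, 0.474 for Pdgfa, 0.36 for Mcam 1369793_a_at, 0.32 for Mcam 1374933_at and 0.222 for Cspg4. Around the group means r with this sum was -0.246 for Cspg4, and -0.0965 and 0.0167 for the Mcam probe sets. It was 0.625 for Pdgfrb, 0.828 for Pdgfra and 0.665 for Rgs5. Vtn was the brightest gene of this sum. With the 4 measured markers of oligodendrocyte precursors, Cspg4 had r = -0.176 and Pdgfra r = -0.386. The sham array with conflicting labels, at a contractile sum of 473005, lay close to the 3VO arrays for Mcam.

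**Figure D4:**
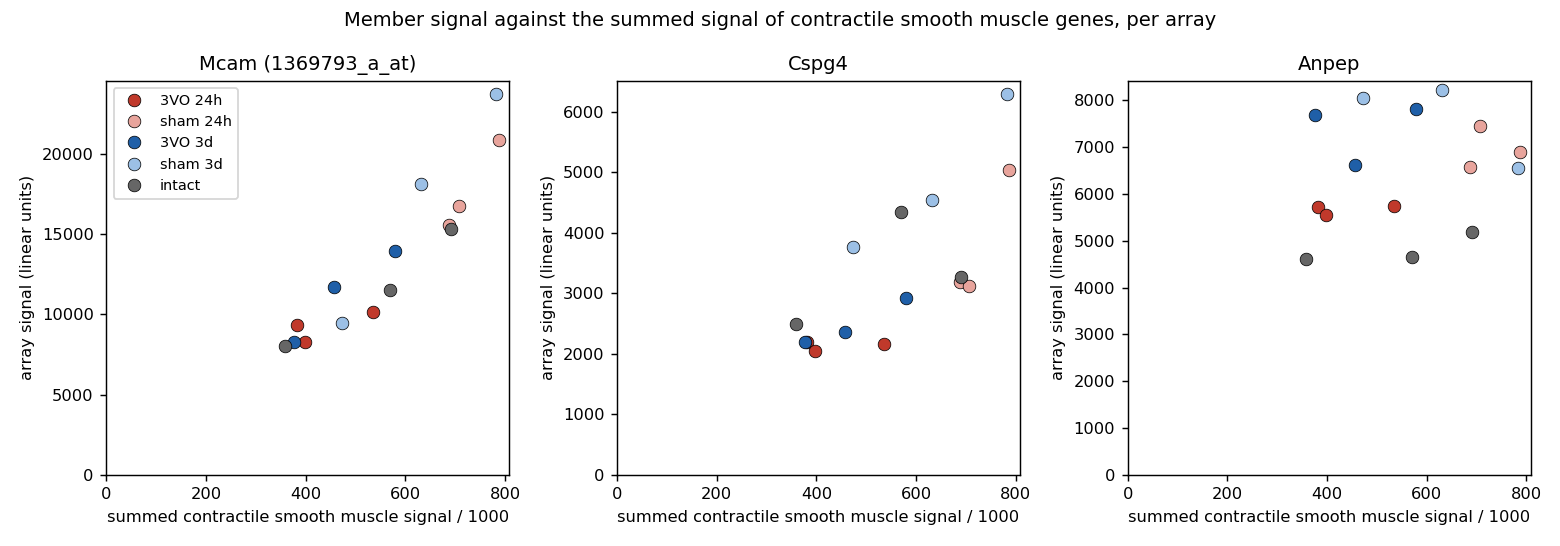
Signal of Mcam (1369793_a_at), Cspg4 and Anpep in linear units (y axis, from 0) against the summed signal of 14 contractile smooth muscle genes, divided as the axis states (x axis, from 0), 1 point per array coloured by group. Over all arrays together Mcam rises with the sum (r = 0.940), Cspg4 more loosely (r = 0.762), and Anpep follows it little (r = 0.251). Each r is of log2 values, whereas the axes are linear.

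The genes most like each member were taken as the 3 other probe sets with the highest r over the 15 arrays. For Cspg4 they were Macf1, a linker of microtubules and actin (r = 0.951), Synpo2l (0.919) and the neurotrophin Ntf3 (0.918). For Mcam they were a pair of probe sets of the actin cross-linker Actn1 (0.933 and 0.915) and the myosin light chain kinase Mylk (0.926). Pdgfrb was closest to Cd248, the mural and stromal glycoprotein endosialin (0.918), then Zgpat (0.893) and Rcsd1 (0.884). Anpep was closest to Triobp (0.919) and to the collagen genes Col1a1 (0.904) and Col1a2 (0.899), and around the group means these values were 0.684, 0.564 and 0.631. Pdgfra was closest to the scaffold protein gene Sdcbp (0.887), Tff2 (0.884) and the amino acid transporter Slc6a20a (0.879). Values for Pdgfa, led by Acin1 (0.814), and for Rgs5, led by Nr0b1 (0.793), were lower. With 15737 probe sets to choose from, a high r for the nearest gene is no mark of the member.

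Of 49 other genes of the PDGF pathway 39 were measured, among them ligands, adaptors, kinases, phosphatases and early target genes. None passed in either direction in any of the 7 comparisons. At 24 h 18 were higher and 21 lower after 3VO, with a median of -0.01, and 0 higher and 2 lower had an unadjusted p under 0.05, where 3.25% and 3.72% of all probe sets did. The docking protein gene Gab1, which couples receptor kinases to downstream enzymes, averaged 7901 ± 221 after 3VO and 10339 ± 830.2 after sham surgery (log2 -0.38, limma adjusted p = 0.609). The kinase Map2k2 differed by -0.49, the adaptor Crk by -0.29 and the GTPase Nras by 0.35. At 3 d 18 were higher and 21 lower, with a median of -0.06, and Gab1 differed by -0.33 (adjusted p = 0.999). The phosphatase Ptpn12 differed by 0.59, Crk by -0.28 and the PDGF ligand Pdgfd by -1.16, at 381 ± 190.4 after 3VO and 828 ± 229 after sham surgery. Without the first sham array of 3 d 19 were higher and 20 lower, with none passing, and Ptpn12 differed by 0.83 and Pdgfd by -1.31.

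A list of 34 further mural genes had 25 measured, and none passed in any of the 7 comparisons. Kcnj8, Abcc9, Vtn, Notch3, Cd248, Higd1b and Cox4i2 are also in the pericyte list above, and Casq2 and Des in the contractile list. Its counts thus partly repeat those lists. At 24 h 6 were higher and 19 lower after 3VO, with a median of -0.21, against -0.02 over all probe sets. An unadjusted p under 0.05 was found for 0 higher and 6 lower genes, where 3.25% and 3.72% of all probe sets had one. Itga7, the laminin-binding integrin of muscle, averaged 4947 ± 448 after 3VO and 9358 ± 1955 after sham surgery (log2 -0.90, limma adjusted p = 0.195). Gucy1a1, a subunit of the nitric oxide receptor, differed by -0.82 (adjusted p = 0.151), and the respiratory subunit Cox4i2 by -0.51 (adjusted p = 0.518). The calcium store gene Casq2 averaged 3294 ± 476 after 3VO and 6650.2 ± 1337 after sham surgery (limma adjusted p = 0.225). At 3 d 11 were higher and 14 lower (median -0.01). The transcription factor Ebf1 then averaged 2071 ± 353 after 3VO and 3065 ± 106 after sham surgery (log2 -0.57, limma adjusted p = 0.953). Foxc1, a transcription factor of mural and meningeal cells, differed by 0.63, the sphingosine receptor S1pr3 by -0.61 and Kcnj8 by 0.78, each at an adjusted p = 0.999. Without the first sham array of 3 d 13 were higher and 12 lower (median 0.01), with none passing, and Kcnj8 differed by 1.06.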

How the data were processed

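Per the design text, the authors scanned Rat230A arrays and processed them with GCOS, version not given in the sources used here. Deposited values are a linear array intensity. The stated scaling target is 500, while the 2% trimmed mean of every array came to 5000. The number of arrays limits the precision.

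From these values log2(signal + 16) was computed for the 15737 probe sets that reached 100 on 3 or more arrays, leaving out 57 control probe sets. limma 3.58.1 in R 4.3.3 fitted 5 group means to 15 arrays, with a variance trend, 10 residual and 4.83 prior degrees of freedom, and 2-sided tests. Benjamini-Hochberg adjustment ran over all probe sets within each of 7 comparisons: 3VO against sham at both times, the difference of these, and each operated group against intact. The fit was tested on simulated data. Gene symbols come from the platform table, with 12783 probe sets of 1 gene, 312 of several and 2771 of none, updated through Entrez identifiers for genes that are not members. Of a list gene with several probe sets the brightest was used, in the marker sums as well.

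Every member probe set was named. Of the 2 further gene lists the 4 genes with the smallest unadjusted p in each 3VO against sham comparison were named, and for each member the 3 most correlated probe sets of other genes. The members and lists were chosen with earlier results of these data known. Alternatives were pseudocounts of 1 and 64, a minimum of 1000 with a pseudocount of 160, no signal filter, quantile normalization, median centring, no variance trend, array weights, only the groups of the comparison and leaving out each array. Added after seeing the data was a fit without the 2 arrays with the highest summed choroid plexus markers.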

Additional observations from a re-analysis of the deposited data

How the results depend on the processing

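Alternatives changed few calls, since none of the members passed to begin with. Of 560 log2 differences under other settings than single arrays, 551 kept their direction and stayed short of the threshold, and 801 of 840 did so when a single array was left out. With only the groups of the comparison in the fit, 1 member (Mcam 1374933_at) passed for 3VO against sham at 24 h. When single arrays were left out, the number of members that passed ran from 0 to 1 for 3VO at 3 d against intact, from 0 to 2 for sham at 24 h against intact and from 0 to 1 for sham at 3 d against intact. Counts of lower members at 3 d ran from 3 to 6, and of members lower without overlap at 3 d from 1 to 3. At 24 h these counts ran from 7 to 8 and from 5 to 7 over all alternatives. The share of all probe sets without overlap was not counted in the alternatives. A rise in the count with an array left out is therefore no result about the members.

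Differences near 0 changed sign. Pdgfa in 3VO against sham at 3 d became 0.0050 with quantile normalization and 0.0025 with median centring, and in 3VO at 24 h against intact 0.0701 with array weights. Without the 2 arrays richest in choroid plexus markers it became 0.12 there, Anpep became 0.0169 in 3VO against sham at 3 d, and Rgs5 became -0.23 in sham at 3 d against intact. Rgs5 became -0.0208 there with median centring, and Mcam 1369793_a_at 0.14 in 3VO at 3 d against intact with array weights.

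Leaving out single arrays gave the following ranges for differences that changed sign. For 3VO against sham at 24 h the range was -0.26 to 0.0564 for Pdgfa. At 3 d it was -0.15 to 0.10 for Pdgfa, -0.27 to 0.44 for Rgs5 and -0.15 to 0.0333 for Anpep. The difference between the times ran from -0.0685 to 0.25 for Pdgfa and from -0.37 to 0.0507 for Cspg4. For 3VO at 24 h against intact the ranges were -0.40 to 0.10 for Pdgfrb and -0.26 to 0.12 for Pdgfa, and for 3VO at 3 d against intact -0.27 to 0.20 for Mcam 1369793_a_at and -0.23 to 0.48 for Rgs5. For sham at 24 h against intact they were -0.11 to 0.27 for Pdgfa, -0.0565 to 0.37 for Cspg4, -0.12 to 0.55 for Mcam 1374933_at and -0.10 to 0.39 for Rgs5. For sham at 3 d against intact they were -0.0621 to 0.22 for Pdgfra, -0.38 to 0.43 for Mcam 1374933_at and -0.16 to 0.34 for Rgs5. The cause of these changes was not tested. No paired analysis was possible because each array number in the labels occurs once and none is shared between groups. With 3 arrays a group and 10 residual degrees of freedom, SEs of the members lay between 0.13 and 0.35 in comparisons of 2 groups.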
